A study of Homo sapiens with 46 samples.

Results

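Alternative 5′ splice site events, called A5SS events from here on, are places where an exon can end at either of a pair of donor sites before it is joined to the same downstream exon. The members described here are all events that carry the A5SS name in the splicing tables deposited for the series. They number 8634 of 298384 splicing events in 4 tables, beside 217062 cassette exon events and 12814 alternative 3′ splice site events. The table of the 200 nM experiment holds 6140 of them, that of the 50 nM experiment 5296, that of the siRNA experiment 7199 and that of the xenograft 5990, and 4200 events stand in all 4 tables. They lie in 4297 genes, of which 2387 hold 1 event and the fullest holds 33. Events can share sites: there are 6823 distinct pairs of donor sites, and 1344 of these occur in more than 1 event, joined to different exons.

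The series holds 46 samples in 14 groups. The cell lines were MDA-MB-231 (breast cancer) and U87MG (glioblastoma). Each line was transfected by Lipofectamine 3000 with ASO-1570, an antisense oligonucleotide that targets TRA2B, or with a control oligonucleotide, ASO-CTL, at 200 nM or at 50 nM. A separate experiment used 10 nM of siRNA, aimed at TRA2B or a control sequence, in either line. RNA was taken after 48 hours, and 3 libraries were made for every group of the lines. A patient-derived breast carcinoma xenograft (PDX), grown in mice that the labels call immunocompetent, received ASO-1570 or ASO-CTL by injection into the tumour at 50 mg/kg, 3 injections a week for 4 weeks, with 5 tumours per group. For MDA-MB-231 at 50 nM and with siRNA, the label for cell type reads glioblastoma and so conflicts with the one for cell line. Nothing in the labels says that libraries of a group came from separate cultures, so p-values in the lines measure the spread between libraries, which may be technical.

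The donor site is the first signal of an intron. It is read by base pairing with the U1 small nuclear RNA and later with U6, and its consensus in this region is CAG at the end of the exon followed by GTAAGT in the intron. When several donors compete, SR proteins such as TRA2B bound to purine-rich exon sequence, hnRNPs and cofactors of the U1 particle such as LUC7-like proteins and TIA1 weigh on the choice. Use of the downstream donor adds the stretch between the sites to the exon, which can lengthen a protein, alter an untranslated region, or shift the frame and expose the transcript to nonsense-mediated decay. TRA2A is the close paralog of TRA2B, and GAA-rich exon motifs are the textbook binding sites of both.

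The unit throughout is PSI, percent spliced in, given by the authors as a fraction from 0 to 1. For these events PSI is the share with the downstream donor among transcripts that join either donor to the downstream exon of the event. A higher PSI means more of the longer exon among these. Transcripts that join the same donors to another exon are not part of this share. This reading was checked against the GENCODE 29 annotation: in U87MG control libraries at 200 nM the median PSI was 0.915 over 131 events whose long junction alone is annotated and 0.413 over 169 events whose short junction alone is annotated. No read counts accompany PSI in the tables, so how deeply an event was sequenced is unknown and counting intervals cannot be printed.

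The stretch between the sites had a median of 83 bases, with quartiles of 26 and 234 and a range of 1 to 11521 bases. A spacing of 4 bases, common among tandem donors, was found in 359 events (4.16%). The upstream donor began with GT in 7812 of the 8057 events where annotated transcripts allowed it to be read, and the downstream donor in 3407 of 3509. By the annotation the events fall into 3 classes. In the 4682 events called simple here, no annotated intron leads from the upstream donor to an exon that ends at the downstream donor. None leads from either donor to an exon between the downstream donor and the acceptor, and no cassette exon event has the same junctions. Other exons were not looked for. In 2007 events an annotated exon lies in the intron after the downstream donor. In the other 1945 events the "stretch" holds a whole intron and the exon after it, so that the junctions counted by the A5SS event are also those counted for inclusion and skipping of a cassette exon. The stretch had a median of 51 bases in the simple class, 48 in the class with an exon in the intron and 411 in the class with an exon in the stretch.

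The following donor pairs carry the main patterns, and each is described with its values further on. The coordinates are those of the whole printed run. Sequences are from GENCODE 29 transcripts on GRCh38, 5′ to 3′ on the strand of the gene. Each line begins with the last 3 bases of the shorter exon, runs through the stretch and, where an annotated transcript holds them, ends with the first 6 bases after the downstream donor. Capitals mark the GT of each donor. ENSA is shown as a move to the longer exon seen in both lines, SNHG12 and BICD1 as moves to the shorter exon over a short and a medium stretch, and NPEPL1, CLEC16A and PPP4R3A as the events that stood apart with siRNA. For CLEC16A the bases after the downstream donor were not read.
ENSA, chr1:150627392-150627469, minus strand: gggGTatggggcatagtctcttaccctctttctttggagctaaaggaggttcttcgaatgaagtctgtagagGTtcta
SNHG12, chr1:28581088-28581113, minus strand: cagGTagtaatgatggacagGTgagg
BICD1, chr12:32337704-32337822, plus strand: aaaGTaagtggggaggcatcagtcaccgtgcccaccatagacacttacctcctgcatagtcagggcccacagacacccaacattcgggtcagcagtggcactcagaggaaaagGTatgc
NPEPL1, chr20:58691778-58691836, plus strand: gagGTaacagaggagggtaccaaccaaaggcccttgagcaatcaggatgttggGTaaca
CLEC16A, chr16:11003255-11003305, plus strand: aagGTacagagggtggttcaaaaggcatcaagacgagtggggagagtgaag
PPP4R3A, chr14:91475805-91475852, minus strand: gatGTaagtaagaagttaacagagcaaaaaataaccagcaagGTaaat
Scored as matches out of 9 to the consensus, the 1862 simple events with both sites read had 5.47 ± 1.00 matches at the upstream donor and 5.55 ± 1.05 at the downstream donor (SD over events).

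Libraries of the 200 nM experiment held totals of 259.9 to 356.8 M gene counts, against 78.6 to 112.8 M at 50 nM, 75 to 111.1 M with siRNA and 75.3 to 109.6 M in the PDX. Mitochondrial genes took 1.73% to 3.16% of counts in the lines. In the PDX they took 22.8% to 75.3% (median 64.2%) in treated and 17.7% to 53.9% (median 29.8%) in control tumours, and their part in the PDX results was not tested. KRT8, an epithelial keratin, had group means of 499 to 1347 CPM (counts scaled to the library total) in MDA-MB-231 and of 3.0 to 6.7 CPM in U87MG, also in the samples with conflicting labels. Glial markers other than NES were low in both lines, and the markers did not order the lines alike. The values that follow are group means at 200 nM, treated and then control. OLIG2 had 2.92 and 3.10 CPM in U87MG and 0 in MDA-MB-231. GFAP had 0.0627 and 0.0803 CPM in U87MG and 1.90 and 3.00 CPM in MDA-MB-231, and SOX2 had 0.0889 and 0.0301 CPM in U87MG. NES was higher, with 13.15 and 28.97 CPM in U87MG and 14.78 and 21.73 CPM in MDA-MB-231. TRA2B fell in all 6 comparisons of the lines, at 200 nM from 157 to 76.7 CPM (U87MG) and from 198 to 109 CPM (MDA-MB-231), and with siRNA from 181 to 25.5 CPM (U87MG) and from 192 to 22.2 CPM (MDA-MB-231). In the PDX it was 105 CPM in control and 94.5 CPM in treated tumours (edgeR adjusted p = 0.707). These CPM of TRA2B use library totals adjusted by TMM, a normalization between libraries. So do the treated and control means of splicing factor and host genes given below.

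With ASO-1570 many A5SS events were called in U87MG and few in MDA-MB-231, and no A5SS event passed the test with siRNA or in the PDX. An event was tested when it had a PSI in every library compared and a range of at least 0.05, and it was called when its limma p, adjusted over all event types of the comparison, was below 0.05 and the group means differed by at least 0.10. In U87MG at 200 nM, 584 of 3322 tested A5SS events were called, 238 to the longer and 346 to the shorter exon, in 479 genes, where 19.6% of all event types were called. In U87MG at 50 nM it was 361 of 2950, 152 longer and 209 shorter, against 13.8% of all types. In MDA-MB-231 36 of 2933 were called at 200 nM (14 longer, 22 shorter; background 1.42%) and 8 of 2655 at 50 nM (5 longer, 3 shorter; background 0.199%). The A5SS share called in U87MG at 200 nM, 17.6%, lay between that of cassette exons (22.1%) and that of alternative 3′ splice sites (12.9%), close to that of retained introns (17.1%). Across all event types at that dose 5.46% were called towards the longer or included form and 14.1% towards the shorter or skipped form. At 50 nM in U87MG these shares were 3.83% and 9.94%, and in MDA-MB-231 they were 0.394% and 1.03% at 200 nM and 0.0766% and 0.122% at 50 nM. The median difference over all tested A5SS events in U87MG at 200 nM was -0.00133.

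A wider description counts events whose treated and control libraries did not overlap and whose means differed by at least 0.10, with no test. It found 280 A5SS events in MDA-MB-231 at 200 nM, 120 longer and 160 shorter, where 9.81% of all event types met it (3.15% longer, 6.66% shorter). U87MG at 200 nM gave 759, 331 longer and 428 shorter, against 23.7% (7.02% and 16.7%). At 50 nM MDA-MB-231 gave 177, 86 longer and 91 shorter, against 7.78% (2.81% and 4.97%), and U87MG gave 563, 262 longer and 301 shorter, against 20.1% (6.18% and 13.9%). As shares of the A5SS events tested these counts were 9.55%, 22.8%, 6.67% and 19.1%, each near its background.

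**Figure D1:**
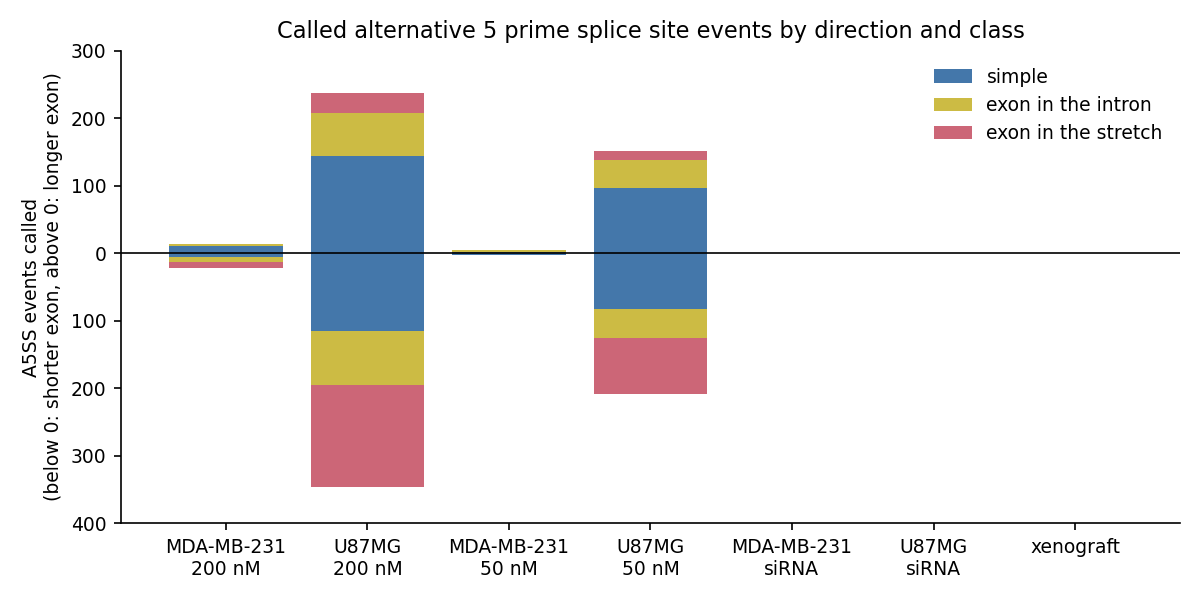
Number of A5SS events called in each comparison (y axis, events), with moves to the longer exon above 0 and moves to the shorter exon below 0, coloured by class. U87MG holds 584 calls at 200 nM and 361 at 50 nM, MDA-MB-231 holds 36 and 8, and the siRNA and xenograft comparisons hold 0.

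The count in MDA-MB-231 rested on single libraries. Without treated replicate 3 it was 79 at 200 nM and 20 at 50 nM, and without any 1 of the other libraries it was 3 to 9 and 0 to 2. In U87MG leaving out any 1 library gave 416 to 575 calls at 200 nM and 157 to 428 at 50 nM, where leaving out any control gave 157 to 165 and leaving out treated replicate 1 gave 225.

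ENSA moved to the longer exon in both lines at 200 nM. The gene encodes endosulfine alpha, a small inhibitor of the phosphatase PP2A-B55 that acts in mitosis. From its shared upstream donor (site gggGTatgg, 5 matches to the consensus) it can read on to a donor 69 bases downstream (gagGTtcta, 4 matches) or to one 155 bases downstream (aatGTaaat, 6 matches; chromosome 1, 150627312 to 150627466, coding and untranslated sequence). For the 155-base stretch the U87MG control libraries at 200 nM had a PSI of 0.315, 0.269 and 0.299 and the treated libraries 0.887, 0.902 and 0.848. In MDA-MB-231 the controls had 0.333, 0.332 and 0.419 and the treated libraries 0.795, 0.814 and 0.667. Treated and control libraries did not overlap in either line. The difference was 0.585 in U87MG (limma adjusted p = 0.000345) and 0.397 in MDA-MB-231 (adjusted p = 0.0323). At 50 nM it was 0.564 in U87MG (adjusted p = 0.00102) and 0.321 in MDA-MB-231, which did not pass the test (adjusted p = 0.0917). The coding 69-base stretch moved alike, from 0.208, 0.168 and 0.21 to 0.807, 0.829 and 0.741 in U87MG at 200 nM (difference 0.597). The 2 ENSA events share the upstream donor and are not independent. With siRNA the 155-base event had differences of 0.028 (MDA-MB-231) and 0.0587 (U87MG), and in the PDX both groups were already high, with controls at 0.686 to 0.877 and treated tumours at 0.722 to 0.927.

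ZBTB8OS, which encodes archease, a cofactor of the tRNA ligase, had a 66-base event that was called to the longer exon in all 4 oligonucleotide comparisons (chromosome 1, 32634702 to 32634767, with an annotated exon in the intron). Its upstream site is ccaGTgagt (6 matches) and its downstream site ttgGTatcc (4 matches). In MDA-MB-231 at 200 nM the control libraries had 0.287, 0.384 and 0.447 and the treated libraries 0.685, 0.677 and 0.666. In U87MG they had 0.123, 0.15 and 0.098 and 0.361, 0.341 and 0.421. All treated libraries lay above all controls, by 0.303 and 0.251 at 200 nM and by 0.341 and 0.298 at 50 nM. A 31-base stretch of the same gene was also called at 50 nM in MDA-MB-231 (0.545) and at both doses in U87MG (0.579 and 0.501).

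CGRRF1, a RING finger protein, used a stretch of 537 bases (chromosome 14, 54530227 to 54530763) in few control transcripts. Its upstream donor tttGTatcc matches the consensus at 3 of 9 bases, and the long junction is annotated only in transcripts that are noncoding or targets of nonsense-mediated decay. The U87MG control libraries at 200 nM had 0.044, 0.04 and 0.037 and the treated libraries 0.513, 0.638 and 0.61, a difference of 0.547 (limma adjusted p = 0.000778). In MDA-MB-231 the treated libraries had 0.251, 0.204 and 0.204 against 0.045, 0.042 and 0.048 (0.175, adjusted p = 0.0267). SYTL2, which encodes an effector of the secretory GTPase RAB27, has a stretch of 3864 coding bases. It moved in U87MG at 200 nM from 0.071, 0.157 and 0.174 to 0.652, 0.633 and 1, and also moved at 50 nM in MDA-MB-231 from 0.066, 0.044 and 0.083 to 0.299, 0.283 and 0.253 (0.214, adjusted p = 0.0452). CALD1, which encodes the actin-binding protein caldesmon, rose by 0.261 and 0.489 at 200 nM and by 0.415 in U87MG at 50 nM, with a difference of 0.171 in MDA-MB-231 at 50 nM.

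ALG13, a subunit of a glycosyltransferase of N-linked glycan synthesis, had a simple event that moved to the shorter exon. Its 65-base coding stretch (chromosome X, 111682236 to 111682300) follows the donor cagGTacaa. The U87MG control libraries at 200 nM had 0.92, 0.945 and 0.864 and the treated libraries 0.272, 0.236 and 0.232, a difference of -0.663 (limma adjusted p = 0.000337), and at 50 nM the difference was -0.59 (adjusted p = 0.00126). In MDA-MB-231 the treated libraries also lay below the controls, with 0.579, 0.523 and 0.676 against 0.876, 0.882 and 0.926, but the difference of -0.302 did not pass the test (adjusted p = 0.0574).

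BICD1, a cargo adaptor of dynein, behaved likewise over a 110-base coding stretch whose donors are both close to the consensus (aaaGTaagt with 7 matches, aagGTatgc with 6). In U87MG at 200 nM the controls had 0.896, 0.902 and 0.86 and the treated libraries 0.312, 0.311 and 0.32 (-0.572, limma adjusted p = 0.000269). At 50 nM the difference was -0.351 (adjusted p = 0.0157), and in MDA-MB-231 it was -0.141 at 200 nM with treated values of 0.714, 0.592 and 0.775 overlapping the controls (adjusted p = 0.373).

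NCBP2, the small subunit of the nuclear cap-binding complex, has a pair of weak donors 142 bases apart (gctGTacgt with 5 matches, ggaGTatcc with 3; chromosome 3, 196939251 to 196939392). In U87MG at 200 nM its PSI fell from 0.793, 0.84 and 0.832 to 0.297, 0.243 and 0.288, and in MDA-MB-231 from 0.921, 0.902 and 0.913 to 0.551, 0.511 and 0.643. The differences were -0.546 and -0.344. KIF21A, a kinesin of neurons that both lines express, fell in all 4 oligonucleotide comparisons over a 1320-base stretch (chromosome 12, 39321348 to 39322667). Its upstream donor catGTaagt matches the consensus at 8 of 9 bases. In MDA-MB-231 the controls at 200 nM had 0.24, 0.286 and 0.214 and the treated libraries 0.091, 0.06 and 0.064, and at 50 nM 0.385, 0.363 and 0.417 became 0.143, 0.188 and 0.161. In U87MG the difference was -0.132 at 200 nM and -0.244 at 50 nM. KIF21A was the only simple event called in all 4 of these comparisons.

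**Figure D2:**
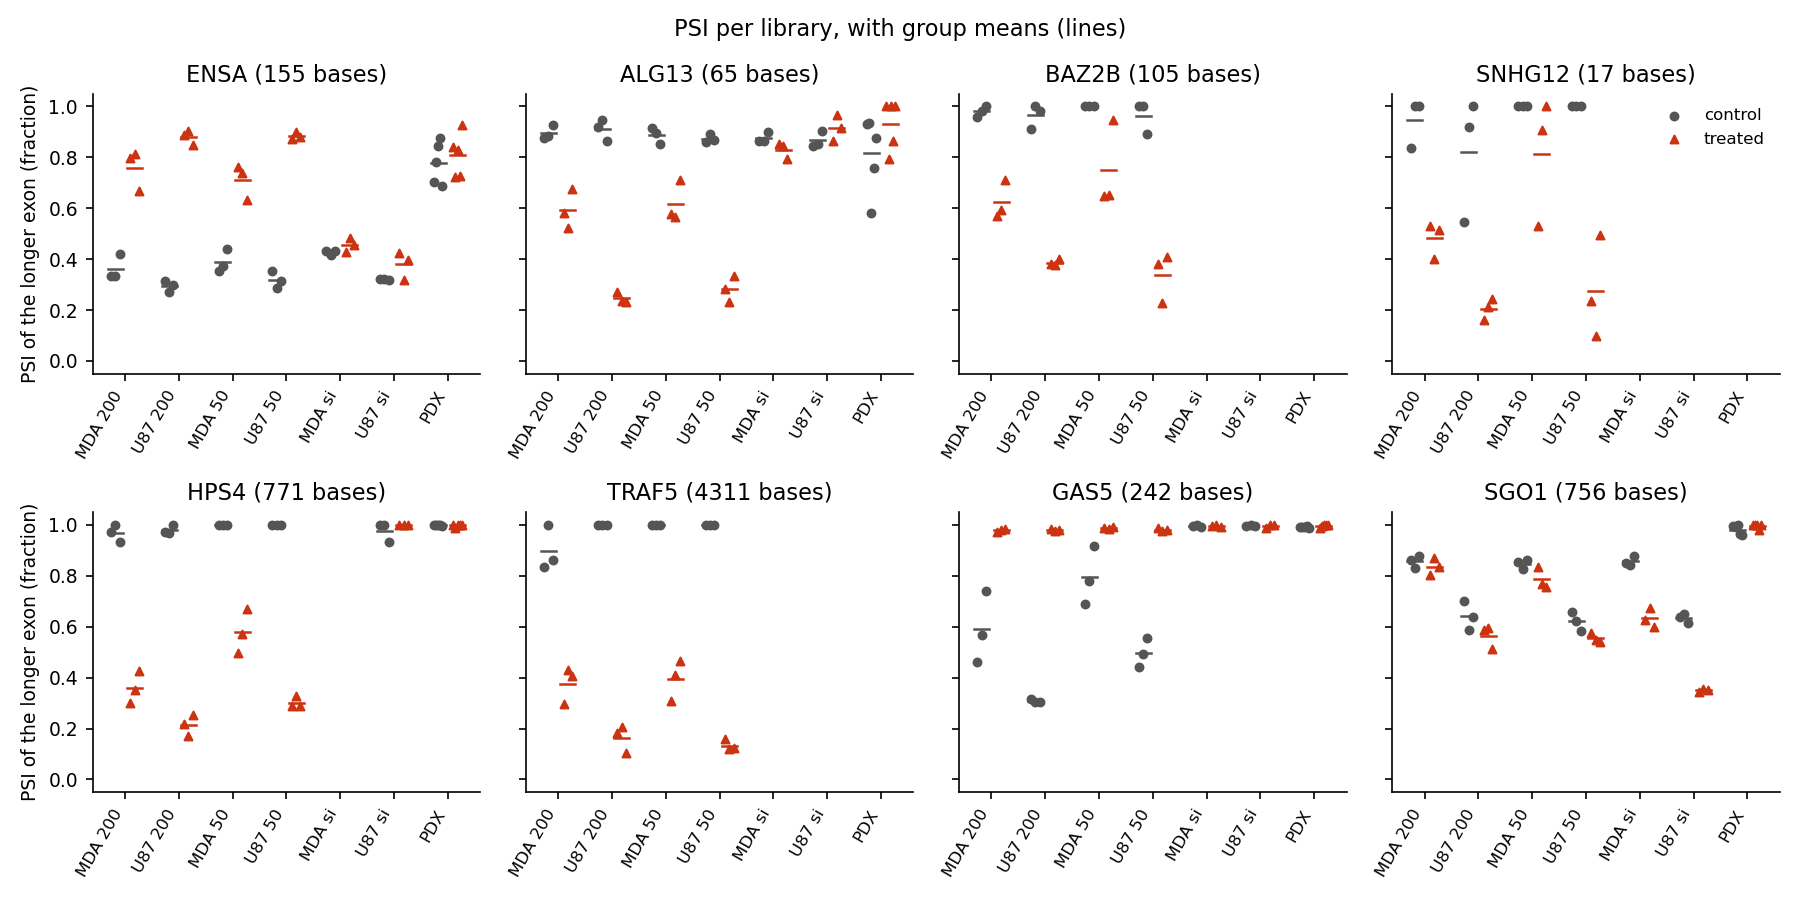
PSI of the longer exon (y axis, fraction) in every library of 8 events, with control libraries as grey circles, treated libraries as red triangles and group means as lines; MDA and U87 stand for the lines, 200 and 50 for the oligonucleotide dose in nM, and si for siRNA, and a place is empty where an event had no value. ENSA rises and ALG13, BAZ2B, HPS4 and TRAF5 fall with ASO-1570 in U87MG at both doses, while the groups of SGO1 do not overlap with siRNA.

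Many calls to the shorter exon were also exon skipping. Of the 346 calls to the shorter exon in U87MG at 200 nM, 151 fell in the class with an exon in the stretch, where 30 went to the longer exon; of 715 tested events of that class 25.3% were called. The simple class split the other way, with 144 longer and 115 shorter among 1845 tested, and events with an exon in the intron gave 64 and 80 among 762 (18.9%). At 50 nM the same classes gave 14 longer and 84 shorter (16.8%), 96 and 82 (10.2%) and 42 and 43 (13.7%). All 9 calls of the class with an exon in the stretch in MDA-MB-231 at 200 nM went to the shorter exon. The median difference at 200 nM in U87MG was 0.0167 over simple events and -0.042 over events with an exon in the stretch. The classes also differed in starting level. Among events not called there, median control PSI was 0.935 with an exon in the stretch (58.4% over 0.9). In the simple class it was 0.6035 (21.7% over 0.9). An event near 1 has little room to rise, and the part of starting level in these directions was not tested.

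The cassette exon with the same junctions was itself tested for 430 events with an exon in the stretch in U87MG at 200 nM. All 149 called A5SS events among them had the direction of their cassette exon, and 84 of the 149 cassette exons were called. The median difference was -0.246 for the A5SS event and -0.098 for the cassette exon, and across the 430 pairs Pearson's r was 0.816. At 50 nM in U87MG all 83 pairs agreed in direction, 49 cassette exons were called, and r was 0.819 over 371 pairs. These pairs share junction reads by construction, so the agreement is a description of the 2 measures and not a replication.

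**Figure D3:**
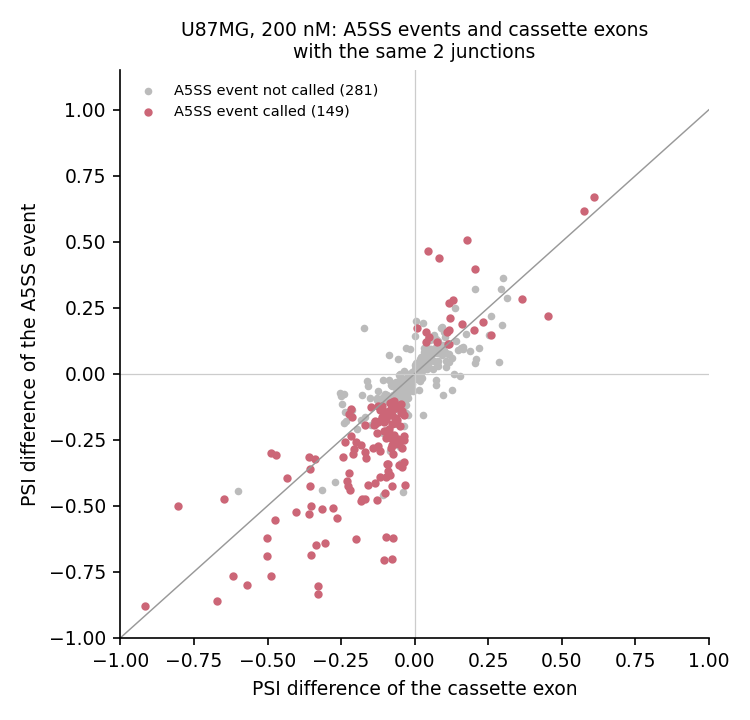
PSI difference (treated minus control) of A5SS events (y axis) against that of the cassette exon with the same 2 junctions (x axis) in U87MG at 200 nM, with the line of equality; red points are the 149 called A5SS events and grey points the 281 others. All red points lie in the quadrants where both measures have the same sign, and most lie below the line at the lower left.

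HPS4, a subunit of the BLOC-3 complex that makes lysosome-related organelles, is an example of this class. Its PSI in U87MG at 200 nM was 0.971, 0.968 and 1 in control and 0.217, 0.17 and 0.254 in treated libraries (-0.766, limma adjusted p = 0.000235), and its cassette exon differed by -0.487. In MDA-MB-231 the treated libraries had 0.3, 0.351 and 0.427 against 0.972, 1 and 0.933 (-0.609, adjusted p = 0.00923). TRAF5, an adaptor of TNF receptors, was called to the shorter exon in all 4 oligonucleotide comparisons, from 1 in all U87MG controls at 200 nM to 0.183, 0.207 and 0.103 (-0.836). TRAF5 mRNA was low there, with means of 3.87 CPM (control) and 2.19 CPM (treated). Its cassette exon differed by -0.328 there. IFRD2 moved by -0.881 with a cassette difference of -0.915, TRMT13, a tRNA methyltransferase, by -0.86 and -0.672, and TPP1, a lysosomal peptidase, by -0.801 and -0.57. MRPL2, a protein of the mitochondrial ribosome, moved by -0.689 and -0.501, BDH2, a hydroxybutyrate dehydrogenase, by -0.649 and -0.337, NECAP1, an endocytosis protein, by -0.531 and -0.359, and the DNA sensor IFI16 by -0.626 and -0.198. SNHG17, a noncoding host of small nucleolar RNAs, moved at 200 nM by -0.395 (MDA-MB-231) and -0.537 (U87MG).

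The host of several small nucleolar RNAs GAS5 went the other way. Its 242-base event on chromosome 1 (173865229 to 173865470; donors aagGTacat and aagGTatag) had a PSI of 0.315, 0.303 and 0.306 in U87MG controls at 200 nM and of 0.983, 0.977 and 0.979 in treated libraries (0.672, limma adjusted p = 0.000179), and its cassette exon rose by 0.611. The same donor pair joined to a farther exon was not called there and differed by -0.06. For the event that moved, the controls at 50 nM had 0.443, 0.492 and 0.554 and the treated libraries 0.974 to 0.986. The MDA-MB-231 controls were spread from 0.462 to 0.74 at 200 nM and the treated libraries stood at 0.972 to 0.983 (adjusted p = 0.0781). In the siRNA experiment the control libraries of both lines stood at 0.993 to 0.999, near the oligonucleotide-treated level and not near the oligonucleotide controls. The tables come from separate experiments with different control reagents, which cannot be told apart here.

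Other called events have an annotated exon in the intron beyond the sites. BAZ2B, a bromodomain protein, moved from 0.91, 1 and 0.981 to 0.38, 0.376 and 0.402 in U87MG at 200 nM (-0.578) and from 0.958, 0.982 and 1 to 0.568, 0.592 and 0.71 in MDA-MB-231 (-0.357). SNHG12, another small nucleolar RNA host, has donors 17 bases apart that are both near the consensus (cagGTagta with 6 matches, cagGTgagg with 7). It moved from 0.836, 1 and 1 to 0.529, 0.402 and 0.515 in MDA-MB-231 and from 0.545, 0.918 and 1 to 0.162, 0.212 and 0.243 in U87MG at 200 nM (-0.463 and -0.615, limma adjusted p = 0.0388 and 0.0164). The U87MG control libraries of SNHG12 spread widely, and the groups still did not overlap. The largest differences of this class among the named events were those of MMS19, a factor of iron-sulfur protein assembly, in MDA-MB-231 (1 in all controls, 0.035, 0.027 and 0.096 in treated libraries), and MPHOSPH10, a protein of ribosomal RNA processing, in U87MG (-0.914). Values of exactly 1 in every control recur among these, and the reads behind them are not given. The events of CD79A (0.537) and LAT2 (0.407) in MDA-MB-231 at 200 nM and of HDAC2-AS2 (0.701) in U87MG at 200 nM and YDJC (0.709) at 50 nM were also among the largest called, in host genes that, like TRAF5, were under 5 CPM. In U87MG at 200 nM host genes under 5 CPM were rarer among calls than among events not called. They were 25 of 238 longer (10.5%) and 7 of 346 shorter (2.02%) against 15.2%. In MDA-MB-231 at 200 nM they were 3 of 14 longer (21.4%) and 0 of 22 shorter against 16.1%.

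In U87MG the share of simple events called was higher the farther apart the sites lay. At 200 nM it was 12 of 275 (4.36%) at 1 to 10 bases, 34 of 369 (9.21%) at 11 to 30, 73 of 588 (12.4%) at 31 to 100, 95 of 449 (21.2%) at 101 to 300 and 45 of 164 (27.4%) beyond 300 bases. At 50 nM the shares were 4.83%, 5.87%, 8.18%, 16.3% and 20.3%. MDA-MB-231 had few calls and no steady order, with 0.358%, 0.604%, 0.383%, 1.27% and 3.21% at 200 nM and 1, 0, 0, 0 and 3 calls at 50 nM.

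**Figure D4:**
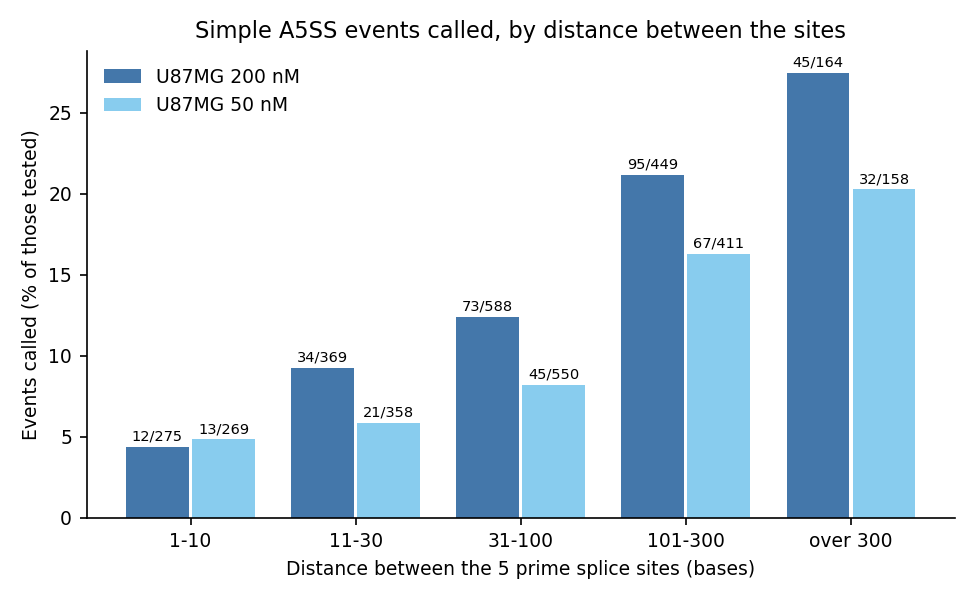
Share of tested simple A5SS events that were called (y axis, percent) by distance between the donor sites (x axis, bases) in U87MG at 200 nM and 50 nM; the numbers over the bars are events called and tested. The share goes from 4.36% at 1 to 10 bases to 27.4% beyond 300 bases at 200 nM.

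Frame over all simple stretches and matches of the upstream donor to the consensus differed little between called and other events. Among simple events in U87MG at 200 nM the stretch was a multiple of 3 in 41.0% of those called longer, 41.7% of those called shorter and 41.6% of those not called. Matches of the upstream donor to the consensus averaged 5.65, 5.71 and 5.63. The downstream donor was read in only 50, 63 and 632 of these events, where its matches averaged 5.52, 5.37 and 5.48. Both junctions were annotated for 83.3% of simple events called longer, 68.7% of those called shorter and 80.4% of those not called. Coding sequence held 33 of 144 simple stretches called longer (22.9%), 45 of 115 called shorter (39.1%) and 539 of 1586 not called (34.0%). The length was in frame for 24, 26 and 314 of these, a higher share among those called longer. At 50 nM it was in frame for 18 of 27 coding stretches called longer, 16 of 28 called shorter and 323 of 545 not called. These differences were not tested. The counts that follow are again of 200 nM. In 5′ untranslated regions lay 32, 14 and 328, and in noncoding transcripts 30, 24 and 256. The long junction was annotated only in transcripts that are noncoding or decay targets for 49 called longer, 29 called shorter and 454 not called, and the short junction for 26, 38 and 401. The motif GAAGAA, searched on the sense strand of the stretch, was in 0 of 39 stretches of 31 to 100 bases called longer, 6 of 34 called shorter and 22 of 505 not called at 200 nM in U87MG. At 101 to 300 bases it was in 5 of 59, 6 of 34 and 29 of 345. At 50 nM these counts were 0 of 23, 4 of 21 and 18 of 496, and 2 of 37, 6 of 29 and 33 of 334. A match describes the letters of a stretch and no binding was measured.

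The doses gave the same direction in nearly all called events. Of 495 events called in U87MG at 200 nM and tested at 50 nM, 480 (97.0%) had the same direction at 50 nM, against 76.4% of the 2458 events tested at both, and 269 were called at both. Of 352 events called at 50 nM and tested at 200 nM, 344 had the same direction at 200 nM. Across the 2458 events r was 0.724. The median size of the difference over the 495 events was 0.212 at 200 nM and 0.176 at 50 nM, and over the 269 called at both it was 0.255 and 0.248. The events were picked by their size at 200 nM in the first of these, so the lower value at 50 nM is a description. The libraries of the doses were made in separate experiments with separate controls.

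The lines also shared directions. Of 498 events called in U87MG at 200 nM and tested in MDA-MB-231, 430 had the same direction there, against 65.9% of the 2522 events tested in both lines. In 466 of the 498 the difference was smaller in MDA-MB-231, with a median size of 0.0813 against 0.236. At 50 nM it was 291 of 333 with the same direction and 317 smaller, with medians of 0.0737 and 0.24. The reverse set was small: 33 of 35 events called in MDA-MB-231 at 200 nM and tested in U87MG had the same direction, and 25 were called. Sizes depend on which line chose the events: over the 35, the median was 0.34 in MDA-MB-231 and 0.366 in U87MG, with 21 smaller in MDA-MB-231, and over the 8 called in MDA-MB-231 at 50 nM it was 0.505 and 0.331, with 3 smaller. The sizes of both sets are therefore descriptions. In all, 412 events were called in 1 of the 4 oligonucleotide comparisons, 254 in 2, 19 in 3 and 3 in all 4, with none called in opposite directions in these comparisons. The 22 events called in at least 3 went 8 to the longer and 14 to the shorter exon. They lie in ATP11B, BAZ2B, BDH2, CALD1, CGRRF1, ENSA, GAS5, HPS4, IFI16, KIF21A, MIR4435-2HG, MRPL2, NCBP2, NECAP1, SNHG12, SNHG17, TPP1, TRAF5, ZBTB8OS and ZNF266, with 2 events each in ENSA and ZBTB8OS. The difference was smaller in MDA-MB-231 than in U87MG in 19 of the 22 at 200 nM, in 19 at 50 nM and in 18 at both doses. The 3 called in all 4 were KIF21A, TRAF5 and the 66-base event of ZBTB8OS.

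**Figure D5:**
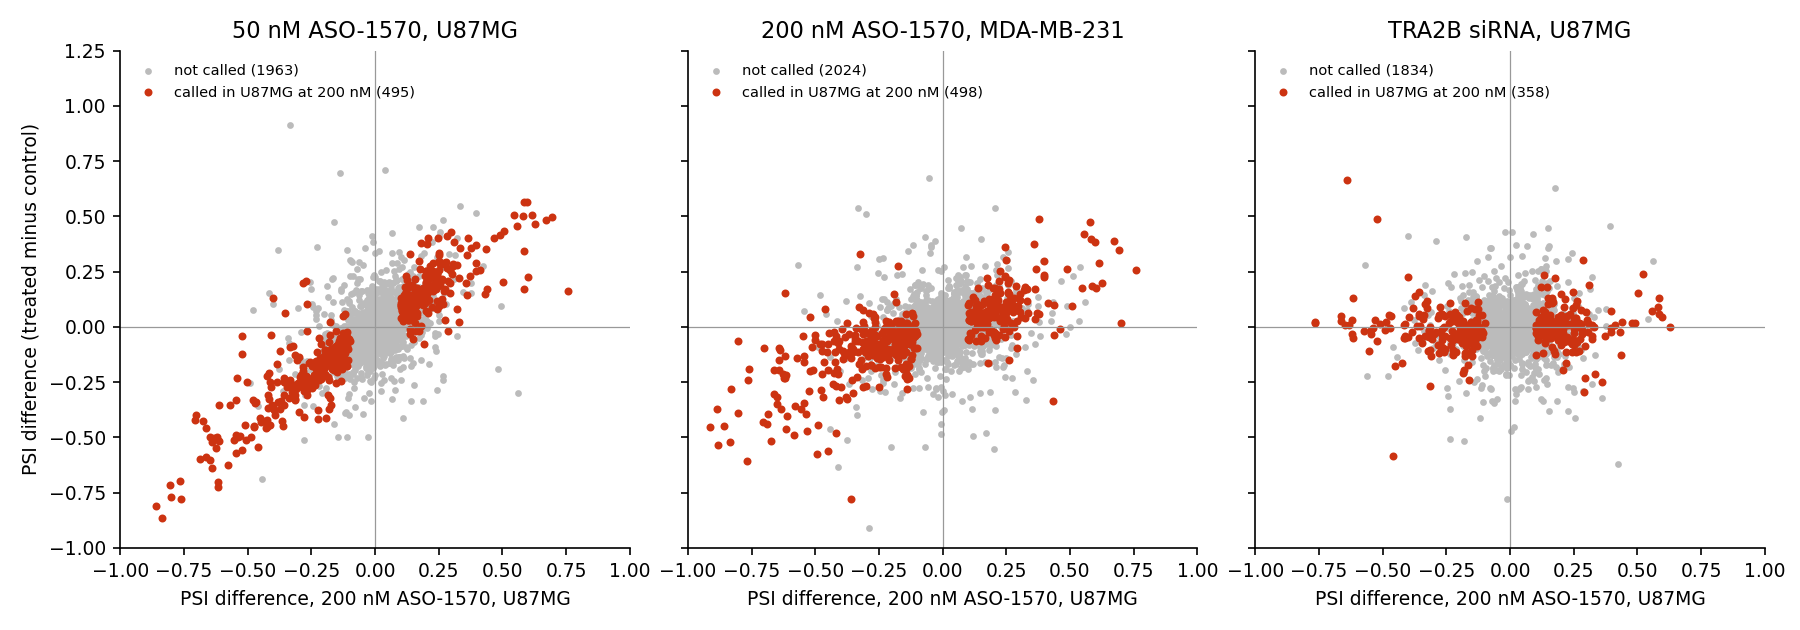
PSI difference (treated minus control) of each A5SS event in U87MG at 200 nM (x axis) against its difference in U87MG at 50 nM, in MDA-MB-231 at 200 nM and in U87MG with siRNA (y axes, left to right); red points were called in U87MG at 200 nM. Called events follow a rising band at 50 nM (480 of 495 in the same direction), a flatter one in MDA-MB-231 (430 of 498), and spread around 0 on the y axis with siRNA (200 of 358).

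A test of the difference between the lines, treated minus control in MDA-MB-231 against that in U87MG, called 261 of 3722 A5SS events at 200 nM (171 higher and 90 lower in MDA-MB-231; 8.08% of all event types) and 118 of 3270 at 50 nM (78 higher and 40 lower; 4.9%). AKR1C1, an aldo-keto reductase of steroid metabolism, was among them at both doses. Its close paralogs could share reads with it, which makes its values uncertain. Its PSI went from 0.962, 0.979 and 0.982 to 0.195, 0.135 and 0.181 in U87MG at 200 nM, while MDA-MB-231 had 1 in all controls and 0.852, 0.96 and 1 in treated libraries. The difference between the lines was 0.741 at 200 nM and 0.683 at 50 nM. CLN3, a lysosomal membrane protein, differed by 0.404 and 0.425, with treated U87MG libraries at 0.553, 0.496 and 0.55 and treated MDA-MB-231 libraries at 1, 1 and 0.937 at 200 nM. MARS, methionyl-tRNA synthetase, went the other way: U87MG controls at 200 nM had 0.726, 0.723 and 0.748 and every treated library had 1, against controls of 0.962, 0.984 and 0.996 in MDA-MB-231, for a difference between lines of -0.248. The MDA-MB-231 controls were near 1 and left PSI little room to rise, and the part of starting level was not tested.

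With siRNA, where TRA2B mRNA was lowest, no A5SS event passed the test. None was called by limma in either line: 0 of 2905 tested in MDA-MB-231 and 0 of 3041 in U87MG, where 0% of all event types were called, with 173 and 164 A5SS events at an unadjusted p below 0.05 and smallest adjusted p-values of 0.096 and 0.162. Groups did not overlap and differed by at least 0.10 in 138 events of MDA-MB-231 (83 longer, 55 shorter; 4.18% of all event types, 2.04% longer and 2.14% shorter) and in 129 of U87MG (56 longer, 73 shorter; 3.83%, 1.63% and 2.19%). Of 1950 events tested in both lines, 10 met this in both and 8 of them in the same direction, a share below the 0.926% of all event types that did so. Across the 1950 events r between the lines was 0.104.

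SGO1, the shugoshin that protects cohesin at centromeres, was 1 of the 8. Its 756-base coding stretch (chromosome 3, 20174249 to 20175004) had a PSI of 0.851, 0.842 and 0.879 in MDA-MB-231 controls and of 0.626, 0.672 and 0.599 with siRNA. In U87MG it was 0.636, 0.648 and 0.616 against 0.344, 0.357 and 0.35. The differences were -0.225 and -0.283 (limma adjusted p = 0.383 and 0.162), and with ASO-1570 they were -0.0217 to -0.0767. PPP4R3A, a regulatory subunit of protein phosphatase 4, has a 39-base coding stretch between donors with 7 matches each. It stood at 0.704, 0.692 and 0.759 against 0.565, 0.583 and 0.594 in MDA-MB-231 and at 0.574, 0.585 and 0.585 against 0.454, 0.437 and 0.396 in U87MG. CLEC16A, a protein of the endolysosomal system, lay above its controls over a 48-base coding stretch, with 0.663, 0.672 and 0.693 against 0.525, 0.535 and 0.544 in MDA-MB-231 and 0.541, 0.571 and 0.516 against 0.327, 0.411 and 0.335 in U87MG. With ASO-1570 the differences of CLEC16A were -0.03 to -0.0893. The centrosomal protein CEP170, of the class with an exon in the stretch, lay lower by 0.153 and 0.131 with siRNA and higher by 0.0873 in U87MG with 200 nM ASO-1570. None of these 4 passed the test with siRNA. The kinases CDK16 and NEK6, the ubiquitin ligase MIB2 and the noncoding RNA MIR4435-2HG are the other events of the 8, and these 4 lay above their controls.

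Directions with ASO-1570 and with siRNA were set side by side. Of 358 events called in U87MG at 200 nM and tested with siRNA in the same line, 200 (55.9%) had the same direction, against 52.7% of the 2192 events tested in both, and r across the 2192 was 0.0157. For 50 nM it was 150 of 252 (59.5%) against 51.8%. Of the 22 events called in at least 3 oligonucleotide comparisons, 10 were tested with siRNA in MDA-MB-231 and 12 in U87MG, and 2 in each line differed by at least 0.10 in size, with 0.239 the largest. The difference between oligonucleotide and siRNA was not tested, since they stand in separate tables.

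A few events lay apart from their controls in the same direction under both reagents. Of 4213 A5SS events with a value in every line library, 9 showed no overlap between treated and control libraries in the same direction in all 6 comparisons of the lines, with no minimum size; among all event types it was 0.364%. These 9 were picked after their values were seen. The noncoding RNA MIR4435-2HG alone differed by at least 0.10 in all 6 (chromosome 2, 111365561 to 111367486, 1926 bases, upstream donor ctgGTaaga with 7 matches). Its PSI in MDA-MB-231 was 0.442, 0.4 and 0.421 in control and 0.586, 0.6 and 0.603 in treated libraries at 200 nM, and 0.322, 0.309 and 0.321 against 0.488, 0.497 and 0.488 with siRNA. The 6 differences ran from 0.148 to 0.199, and 3 of them were called, those of both lines at 200 nM and of U87MG at 50 nM. In the PDX the difference was -0.0144.

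Another of the 9 was the zinc finger gene ZNF266. It differed by -0.161 to -0.199 in the oligonucleotide comparisons over a 455-base stretch in its 5′ untranslated region, by -0.0467 with siRNA in MDA-MB-231 and by -0.239 in U87MG. YPEL5 differed by -0.125 and -0.182 at 200 nM and by -0.039 and -0.0307 with siRNA, the kinetochore protein DSN1 by -0.102 and -0.256 and by -0.0537 and -0.101, and the muscle phosphofructokinase PFKM by 0.118 and 0.053 and by 0.132 and 0.0683, each in MDA-MB-231 and U87MG in turn.

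NPEPL1, a probable aminopeptidase, was the 1 A5SS event of 2889 whose siRNA effect differed between the lines (0.00571% of all event types; 158 had an unadjusted p below 0.05). Its 50-base stretch had a PSI of 1 in all 3 MDA-MB-231 controls and of 0.23, 0.23 and 0.07 with siRNA, a difference of -0.823 that did not pass the test in that line alone (limma adjusted p = 0.096). In U87MG the controls had 0.333, 0.31 and 0.31 and the treated libraries 0.257, 0.219 and 0.375. The difference between the lines was -0.789 (adjusted p = 0.0185).

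In the PDX 0 of 3258 tested A5SS events were called by limma, as were 0% of all event types, with 132 at an unadjusted p below 0.05 and a smallest adjusted p of 0.763. Groups did not overlap, with a difference of at least 0.10, in 11 events (8 longer, 3 shorter), where 0.326% of all event types met this (0.217% longer, 0.109% shorter). BHLHB9 had 0.636 to 0.83 in control and 0.867, 1, 1, 1 and 1 in treated tumours (0.232), in a gene at a mean of 3.82 CPM. ARMC10 had 0.061 to 0.094 in control tumours and 0.098, 0.135, 0.246, 0.281 and 0.779 in treated ones. Others were NOL8 (0.186), UBE2V1 (0.166), SEC31A (0.12), HUWE1 (0.1) and ENTPD5 (0.1) towards the longer exon and C1orf162 (-0.337), ZNF610 (-0.201) and MCRIP2 (-0.148) towards the shorter. NCBP2, called in 3 comparisons of the lines, had 0.506 to 0.775 in control tumours and 0.424, 0.439, 0.46, 0.496 and 0.745 in treated ones, a difference of -0.156 with overlap of the groups. Of 309 events called in U87MG at 200 nM and tested in the PDX, 161 (52.1%) had the same direction, against 52.6% of the 1757 events tested in both. In bulk tumour RNA fewer cells of a type, less RNA per cell and a larger share of mitochondrial counts cannot be told apart. Markers of leukocytes and of endothelium summed to less than 1 CPM in both PDX groups. Those of fibroblasts summed to 17.7 (treated) and 16.9 CPM (control), and those of mammary epithelium to 1840 and 2832 CPM. The totals behind these CPM include mitochondrial counts, with a median share of 64.2% in treated and 29.8% in control tumours. The genes counted are human, so these sums may miss cells of the mouse host.

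Splicing factor genes had A5SS events of their own. The paralog TRA2A has one in its 5′ untranslated region between weak donors 222 bases apart (aaaGTatta with 4 matches, tagGTtaag with 5), and this stretch holds GAAGAA 3 times. Its PSI fell in U87MG at 200 nM from 0.656, 0.654 and 0.73 to 0.558, 0.549 and 0.53 (-0.134, limma adjusted p = 0.0269) and at 50 nM by 0.171 (adjusted p = 0.035). With siRNA the differences were -0.0177 and -0.008, although TRA2A mRNA rose from 55.8 to 163 CPM there and from 43.0 to 118 CPM with 200 nM ASO-1570 in U87MG. SNRNP70, the U1 protein that helps recognise donors, has a 1402-base event that fell from 0.948, 0.969 and 0.98 to 0.73, 0.685 and 0.795 in U87MG at 200 nM. The SR protein SRSF5 rose over a 125-base stretch in U87MG at 50 nM, from 0.128, 0.117 and 0.127 to 0.218, 0.231 and 0.232 (0.103, adjusted p = 0.0115), and fell by 0.222 over another stretch of 355 bases at 200 nM. HNRNPH3 fell by 0.196 at 200 nM and 0.125 at 50 nM.

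Host genes of called events changed in level about as often as other hosts. In U87MG at 200 nM, 130 of 478 host genes rose and 183 fell (65.5%), against 64.6% of 1625 genes whose tested A5SS events were not called and 49.7% of all genes. At 50 nM 106 rose and 106 fell of 299 (70.9%), against 66.7% and 54.6%. In MDA-MB-231 at 200 nM 6 rose and 7 fell of 35 (37.1%), against 37.4% and 25.2%, and at 50 nM 1 rose and 1 fell of 7 where 23.3% of all genes changed. CGRRF1 mRNA rose in U87MG at 200 nM from 18.1 to 48.3 CPM (log2 change 1.41) and SNHG17 from 19.1 to 55.6 CPM (1.54), while KIF21A fell from 32.0 to 15.3 CPM and TRAF5 from 3.87 to 2.19 CPM. ENSA differed by -0.18 (edgeR adjusted p = 0.0224), and ALG13 (-0.08, edgeR adjusted p = 0.445) and BAZ2B (0.07, edgeR adjusted p = 0.407) did not pass the test, although their PSI had moved by more than 0.5.

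Factors that act on donor choice changed in level in both directions in U87MG at 200 nM, where 49.7% of all genes changed. The share was near this for donor recognition, SR protein and decay genes and well above it for hnRNP genes, which was not tested. Of 18 genes of donor recognition 4 rose and 6 fell, among them LUC7L2 (from 107 to 140 CPM) and LUC7L3 (log2 change 0.50) upward and RBM22 (-0.29), PRPF39 (-0.52), TIA1 (-0.34) and SNRNP70 (-0.29) downward. Of 14 SR protein genes 6 rose and 2 fell, of 19 hnRNP genes 9 rose and 7 fell, and of 14 genes of nonsense-mediated decay 4 rose and 4 fell, SMG9 by 0.98. At 50 nM in U87MG, where 54.6% of all genes changed, the counts were 3 and 6 for donor recognition, 8 and 4 for SR proteins, 7 and 8 for hnRNPs and 6 and 4 for decay. In MDA-MB-231 at 200 nM (25.2% of all genes) they were 4 and 3, 2 and 2, 2 and 6, and 2 and 2, and at 50 nM (23.3%) 0 and 3, 2 and 4, 1 and 7, and 2 and 3. With siRNA, where 7.24% of all genes changed in MDA-MB-231 and 4.2% in U87MG, 1 rose and 1 fell of donor recognition in the first and 0 and 1 in the second, beside 2 and 2 and 3 and 2 SR protein genes that include TRA2A and TRA2B themselves. The hnRNP counts with siRNA were 2 and 0 in MDA-MB-231 and 0 and 0 in U87MG, and no decay gene was called in either line. In the PDX no gene of these lists was called, nor any gene of the 23812 tested by edgeR.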

How the data were processed

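RNA-seq of 46 samples was analysed from 4 deposited splicing tables and 4 deposited gene tables. The splicing tables give PSI as a fraction from 0 to 1 per event and library, made by the authors with rMATS per the file names; its version, settings and read counts are not given in the sources used here. The gene tables hold the deposited raw counts per gene. Per the submitters' processing notes, FastQC, MultiQC, Trimmomatic, STAR and StringTie were used on GRCh38 (hg38). Libraries are stranded, read as pairs of 151 bases, per the labels' protocols; the strand setting of the counting was not given in the sources used here, so genes with an antisense partner are uncertain.

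Each of the 7 comparisons was a limma 3.58.1 fit (with trend) to the PSI of its groups, across all event types that no library lacked and that ranged over 0.05 or more, with Benjamini-Hochberg adjustment over all of them; calls need an adjusted p below 0.05 and a difference of 0.10. Differences between lines were tested as an interaction in the same way. Gene levels were tested with edgeR 4.0.16 (quasi-likelihood, TMM), with DESeq2 1.42.0 as an alternative, in R 4.3.3. Event classes, regions and sequences come from GENCODE 29. The reference here held no genome, so donors were scored by matches to the consensus in place of a planned log-odds score. On simulated data 100 events were shifted by 0.4 and 100 by 0.2. In MDA-MB-231 at 200 nM (69852 events) 65 and 5 of these were recovered, with 8 false calls. It was 56 and 2 with 6 in U87MG at 200 nM (82102), and 46 and 5 with 6 in the PDX (66867). The adjustment is stricter when few events are shifted. These shares therefore may not hold in U87MG, where far more events were called.

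Named events are the 6 called events with the largest difference in each direction per comparison whose groups do not overlap, those called in at least 3 oligonucleotide comparisons, those separated in both lines with siRNA, those with the smallest p between lines, and those of splicing factor genes; simple events of each direction, the xenograft events that do not overlap and the events shared by all 6 line comparisons were added after values were seen, and CALD1 and DSN1 to YPEL5 with them. A few items, among them 1 xenograft event, some events that met the rule and some values of tumours far from their group, are not reported here. The members and lists were chosen with earlier results of these data known. Depth per gene library is 75 to 356.8 M counts; that of PSI is unknown. No library pair held identical values. Same-numbered libraries did not deviate together, so replicate numbers were not used for pairing.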

Additional observations from a re-analysis of the deposited data

Results flagged for a closer look

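In 11 of 74 xenograft groups examined over the named events 1 tumour lay far from the other 4 of its group. Chance gives this pattern in about 5% of groups if values are normally distributed. PSI is bounded, and ARMC10 and BHLHB9 were named for their xenograft values, so the count cannot be set against that share. The values of 9 of them follow. Among treated tumours the PSI of the tumour apart was 0.779 in ARMC10, 0.867 in BHLHB9, 0.499 in LMBRD1, 0.745 in NCBP2, 0.202 in the 12-base event of SNRNP70, 0.302 in the 125-base event of SRSF5, 0.532 in TMBIM4 and 0.529 in VEZT. Among control tumours it was 0.061 in KIF21A. The NCBP2 tumour stands alone within the control range, while the other 4 treated tumours lie below every control.

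The effect of ASO-1570 on PSI differed between the lines by the limma test of the difference. At 200 nM the effect in MDA-MB-231 minus that in U87MG was 0.314 for TRAF5, 0.741 for AKR1C1, 0.248 for MRPL2, 0.299 for BDH2, 0.221 for BAZ2B, 0.202 for NCBP2, 0.412 for IFI16, 0.362 for EWSR1, 0.334 for DGKZ and 0.404 for CLN3, all moves to the shorter exon that were smaller in MDA-MB-231. For MARS, a move to the longer exon, it was -0.248, where the MDA-MB-231 controls were near the upper limit of PSI and had little room to rise. At 50 nM it was 0.276 for HPS4, 0.262 for TRAF5, 0.683 for AKR1C1, 0.327 for BDH2, 0.275 for NCBP2, 0.44 for IFI16, 0.327 for DGKZ and 0.425 for CLN3, and -0.243 for ENSA and -0.0967 for MARS. With siRNA it was -0.789 for NPEPL1.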

How the results depend on the processing

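Called A5SS events in MDA-MB-231 at 200 nM (36) numbered 13 with no range filter, 19 with a range of at least 0.10, 77 on the logit scale, 134 with all 4 groups in the fit and 0 with a replicate block. In MDA-MB-231 at 50 nM (8) these gave 1, 5, 16, 45 and 0. In U87MG a smallest difference of 0.20 gave 331 at 200 nM (584) and 223 at 50 nM (361), and the replicate block 380 and 135. With siRNA (0) missing values allowed gave 1 call in MDA-MB-231, and all 4 groups in 1 fit gave 7 there and 8 in U87MG. Differences between lines numbered 123, 0 and 0 with the replicate block in place of 261, 118 and 1. Leaving out 1 library gave 3 to 79, 0 to 20, 416 to 575 and 157 to 428 calls in these oligonucleotide comparisons in the order above, 0 to 1 with siRNA in each line and 0 in the PDX, 198 to 312, 65 to 232 and 0 to 2 differences between lines, and 8 to 15, 2, 266 to 297 and 186 to 215 changed host genes. The cause was not tested, except that a larger smallest difference asks for more. Leaving out 1 library lowered some of these counts and raised others. Replicate numbers do not pair these libraries: same-number correlations were -0.0087 to 0.0267 in the lines and -0.174 to 0.137 in the PDX, and each library matched its own number best in U87MG with siRNA only. Of single named events, 76 results under other settings and 147 without a library fell under the threshold, 17 and 5 came over it, and 943 and 556 kept their side; no direction of a called event reversed. Chosen after seeing the data, leaving out events that share both junctions with a cassette exon left 27 and 7 calls in MDA-MB-231 at 200 and 50 nM and 403 and 263 in U87MG.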

Other observations

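The controls of the oligonucleotide and siRNA experiments could be set side by side for events called with ASO-1570. Of 455 such events in U87MG at 200 nM with a value in all siRNA control libraries, the mean of the siRNA controls lay nearer to the oligonucleotide-treated mean than to the oligonucleotide-control mean in 59 (13.0%), 45 of 216 moves to the longer exon and 14 of 239 to the shorter. The median gap was 0.0413 to the oligonucleotide controls and 0.216 to the treated libraries. At 50 nM it was 33 of 315 (10.5%), and in MDA-MB-231 7 of 25 at 200 nM and 3 of 6 at 50 nM. GAS5 is among the events whose siRNA controls lay at the treated level. The experiments are in separate tables, so control reagent and experiment cannot be told apart.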
